A study of Bos taurus with 2 samples.

Results

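The microRNAs miR-143 and miR-145 were followed in small RNA libraries of bovine lung, in which they occupied 5 of the 2271 rows of the deposited table. Rows were taken when their name, without the species prefix, the arm ending and any suffix that marks altered ends or bases, was miR-143 or miR-145 in any species. This gave 2 rows of miR-143 and 3 of miR-145. There were 2 libraries, 1 from collapsed lungs and 1 from normal lungs of neonatal cows, each made from pooled total RNA of 4 animals with 500 ng given per animal. The series text names cloned and normal cows as the sources of the pools. The series title ties the cloned animals to respiratory distress, but no label of the collapsed-lung sample itself says that it came from clones. Each group was therefore 1 pool, the spread between cows was not measured, and no difference below has a replicate check.

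miRNAs are cut from a hairpin precursor, whose arms (5p and 3p) give a mature strand each, and the more abundant strand of most hairpins is the one that guides Argonaute to target mRNAs. In human and mouse, miR-143 and miR-145 are processed from a single primary transcript that is most active in smooth muscle cells and is also made by fibroblasts and pericytes. The transcript is driven by serum response factor and myocardin, and the pair is known for keeping vascular smooth muscle contractile by repressing regulators such as KLF4, KLF5 and ELK1. In lung they are found in the muscle of airways and vessels. In the RefSeq gene table of the bovine assembly ARS-UCD2.0, MIR143 and MIR145 were next to each other among the miRNA genes of a chromosome. Small RNA data hold no smooth muscle mRNAs, so the cell type named by these miRNAs could not be checked here.

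The sequences below are those of the deposited table, shown because the strands of each hairpin gave different results and because their seeds differ. They are written 5′ to 3′ in DNA letters, and the capitals mark the seed, bases 2 to 8, which pairs with target mRNAs.
miR-143-3p, deposited as bta-miR-143_1ss22GT: tGAGATGAagcactgtagctct
miR-143-5p, deposited as hsa-miR-143-5p_R-1: gGTGCAGTgctgcatctctgg
miR-145-5p, deposited as bta-miR-145: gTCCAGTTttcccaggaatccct
miR-145-5p with another 3′ end, deposited as oan-miR-145-5p_R+3: gTCCAGTTttcccaggaataaa
miR-145-3p, deposited as ssc-miR-145-3p: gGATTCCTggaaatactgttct

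The 4 seeds of these strands were all different, and only the rows of miR-145-5p shared theirs. The bovine names give no arm. bta-miR-145 was taken as the 5p strand because it differed from the platypus-named (oan) 5p row by 3 edits, with the first 19 bases shared, and from the 3p row by 10. bta-miR-143 was taken as the 3p strand because it differed from the named 5p row of miR-143 by 8 edits. The longest stretch of full complementarity between the strands of miR-145 was 10 bases, CCAGGAATCC in the 5p strand and GGATTCCTGG in the 3p strand. That between the strands of miR-143 was 7 bases. miR-143-3p was 22 bases long with 45.5% G or C and began with T, whereas miR-145-5p was 23 bases long with 52.2% G or C and began with G. The remaining strands also began with G.

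No other well covered row carried a seed of these miRNAs. The miR-143-3p seed stood at bases 2 to 8 of 3 further rows, all predicted miRNAs (PC names), which held 3 reads in the collapsed-lung library and 8 in the normal-lung library. The miR-145-5p seed stood at the same bases of 2 further rows, with 1 read in the collapsed-lung library and 6 in the normal-lung library. Among them was the row named mmu-miR-145b_R-2_1ss18GT, gTCCAGTTttcccaggata, which shared its first 17 bases with bta-miR-145 and had 1 read in each library. Its name ends in a letter and is not miR-145, so it was not a member. All 5 of these rows shared a stretch of 10 bases with a member. The seeds of the minor strands stood at bases 2 to 8 of 0 further rows.

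Members of the pair were abundant in both libraries, and miR-143-3p was the most abundant row of each. The table gave 2822876 reads to the collapsed-lung library and 4550911 to the normal-lung library. Levels are given as reads per 1000000 reads of the library in the table (RPM), and intervals are exact binomial 95% intervals for counting error alone, as PCR copies were not marked by molecular identifiers and can stem from the same molecule. All 5 rows together took 14.2% of reads in the collapsed-lung library (14.14 to 14.22%) and 15.6% in the normal-lung library (15.55 to 15.61%). Of the pair's reads, 98.4% stood in both libraries under the bovine names.

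miR-143-3p, the guide strand of miR-143, had 381184 reads or 135034 RPM in the collapsed-lung library and 666565 reads or 146468 RPM in the normal-lung library. It ranked first in both, and its share was 13.5% in the collapsed-lung and 14.6% in the normal-lung library. By level, the 3 bovine names nearest to it over log2 RPM in the 2 libraries were miR-26a, let-7a-5p and miR-126-3p, at distances of 0.51, 2.44 and 2.54. Nearness here speaks only of level. After miR-26a, with 107498 RPM in the collapsed-lung and 112082 RPM in the normal-lung library, summed over its rows, no bovine name stood within a distance of 2 of it.

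miR-143-5p, the minor strand, had 1849 reads or 655 RPM in the collapsed-lung library and 2215 reads or 487 RPM in the normal-lung library. It was the 1 member with a higher level in collapsed lungs, and it ranked 126th of all rows there and 140th in normal lungs.

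miR-145-5p, the strand known in human and mouse to repress KLF4, had 12810 reads or 4538 RPM in the collapsed-lung library and 30812 reads or 6771 RPM in the normal-lung library. It ranked 42nd in the collapsed-lung and 35th in the normal-lung library. The nearest bovine names by level were miR-186, miR-27a-3p and miR-30f, at distances of 0.15, 0.24 and 0.34. miR-186, the nearest, stood at 4933 RPM in the collapsed-lung and 6388 RPM in the normal-lung library.

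miR-145-3p, the minor strand of miR-145, had 4506 reads or 1596 RPM in the collapsed-lung library and 9450 reads or 2077 RPM in the normal-lung library. The row with another 3′ end, oan-miR-145-5p_R+3, had 10 reads in the collapsed-lung and 24 in the normal-lung library, or 3.54 and 5.27 RPM in the same order. The order of the 5 rows by level was the same in both libraries, with miR-143-3p first, then miR-145-5p, miR-145-3p, miR-143-5p and the platypus-named row, and the counting intervals of neighbours in this order did not overlap.

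**Figure D1:**
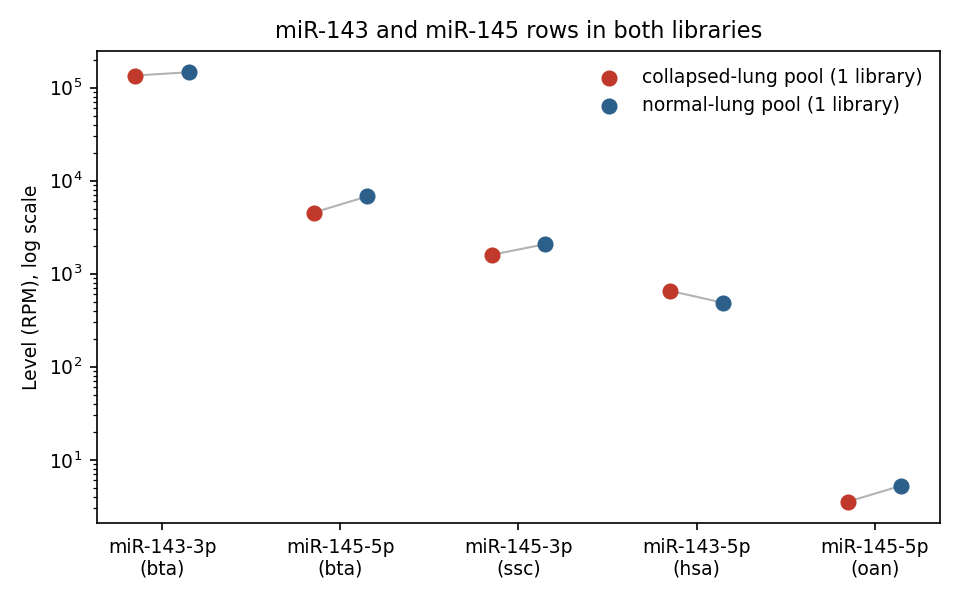
Level of each miR-143 and miR-145 row in the collapsed-lung library (red, left) and the normal-lung library (blue, right), in RPM on a log scale, with the species prefix of the deposited name in brackets and 1 library per point. miR-143-3p stands highest, at 135034 RPM in collapsed and 146468 RPM in normal lungs, and miR-143-5p, at 655 RPM in collapsed and 487 RPM in normal lungs, is the row whose line slopes the other way.

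The comparison of collapsed with normal lungs addresses which miRNAs differ in level in this bovine model of neonatal respiratory distress. If the collapsed-lung pool came from clones, cloning and lung collapse differ together between the libraries and cannot be told apart. Ratios are RPM in collapsed over RPM in normal lungs, with an exact conditional binomial 95% interval for counting error. miR-145-5p was 1.49-fold lower in collapsed lungs (1.46 to 1.52), a log2 ratio of -0.58. miR-145-3p was 1.30-fold lower (1.26 to 1.35), a log2 ratio of -0.38. miR-143-3p was 1.08-fold lower (1.080 to 1.089), a log2 ratio of -0.12, and miR-143-5p was 1.35-fold higher (1.26 to 1.43), a log2 ratio of 0.43. The counting intervals of these 4 rows left out 1. The platypus-named row had a ratio of 0.672 with an interval from 0.287 to 1.46, so that a difference was not detectable at its depth. Summed over rows, miR-145 was 1.44-fold lower (1.42 to 1.47) and miR-143 1.08-fold lower (1.079 to 1.087).

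None of these rows reached a 2-fold difference. Rows averaging 10 RPM or more over the 2 libraries counted as measured, which 4 of the 5 did. Such a row was called where collapsed lungs were at least 2-fold higher or lower and the interval left out 1. By this rule 0 of the 4 measured rows were called, against 6.37% of all 487 measured rows. With a ratio of 1.5 in place of 2, again 0 of the 4 were called, against 19.9% of measured rows, with miR-145-5p just short of the threshold. No test was made between the conditions, since a single library per group gives no spread to test against, so these counts have no p-value beside them.

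Set among all measured rows, miR-145-5p lay toward the low end and miR-143-3p nearer the middle. The median log2 ratio of the 487 measured rows was 0.09, with quartiles of -0.18 and 0.34, and that of the 4 measured member rows was -0.25. A ratio lower than that of miR-145-5p was found in 37 measured rows, and a ratio lower than that of miR-145-3p in 72. For miR-143-3p the number was 146, and a ratio higher than that of miR-143-5p was found in 98. Among the 99 rows with a mean of at least 1000 RPM, whose median log2 ratio was 0.01, 5 rows had a lower ratio than miR-145-5p, 10 a lower one than miR-145-3p and 32 a lower one than miR-143-3p. Log2 ratios below 0 were found in 3 of the 4 measured member rows and in 41.1% of all measured rows.

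**Figure D2:**
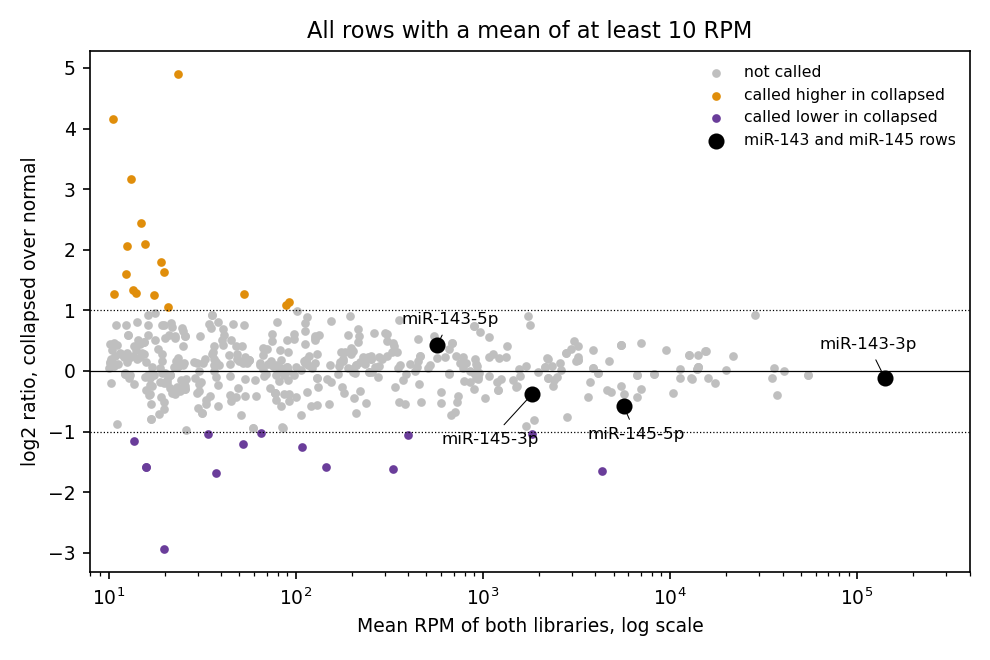
Log2 ratio of collapsed over normal lungs against mean level in RPM (log scale) for the 487 measured rows, with rows called higher in orange, rows called lower in purple, uncalled rows in grey and the 4 measured rows of miR-143 and miR-145 in black. Dotted lines mark a 2-fold difference, and the black points all lie between them, from -0.58 for miR-145-5p to 0.43 for miR-143-5p.

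The scaling of the libraries moved all of these ratios together. Median-of-ratios factors moved log2 ratios by -0.16, a trimmed mean of log ratios by -0.12 and the authors' normalized values by -0.13. The signs of the 5 rows were the same under each of these. miR-145-5p was then 1.66-fold lower with median-of-ratios factors (1.63 to 1.70) and 1.62-fold lower with the trimmed mean (1.58 to 1.65). With the authors' normalized values it was 1.63-fold lower (1.60 to 1.66). Each of these was past 1.5-fold, but this threshold was combined with these scalings only after the data were seen. Rows called lower at 1.5-fold made up 12.4%, 11.2% and 11.3% of measured rows under these scalings, in that order, and miR-145-5p was the 1 member row among them. In the authors' deposited table the log2 fold change was -0.71 for bta-miR-145, -0.51 for ssc-miR-145-3p, -0.25 for bta-miR-143_1ss22GT and 0.30 for hsa-miR-143-5p_R-1.

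Ratios between strands within a library need no scaling between libraries. For every 100 reads of miR-143 there were 4.52 reads of miR-145 in the collapsed-lung library and 6.02 in the normal-lung library. The ratio of miR-145 to miR-143 was thus 1.33-fold lower in collapsed lungs (95% interval 1.31 to 1.36 by Woolf's method, for counting error only). Between the guide strands alone there were 3.36 reads of miR-145-5p per 100 of miR-143-3p in the collapsed-lung and 4.62 in the normal-lung library, 1.38-fold lower (1.35 to 1.40). The minor strands were apart in the same direction and by more, with 244 reads of miR-145-3p per 100 of miR-143-5p in collapsed lungs and 427 in normal lungs, 1.75-fold lower (1.63 to 1.88).

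The use of the strands also differed between the libraries, and in both hairpins the minor strand took a larger part in collapsed lungs. This direction was also common among the other miRNAs of the table, as given below. There were 0.485 reads of miR-143-5p per 100 reads of miR-143-3p in the collapsed-lung library and 0.332 in the normal-lung library, a ratio 1.46-fold higher in collapsed lungs (1.37 to 1.55). miR-145 had 35.1 reads of the 3p strand per 100 of the 5p strand in the collapsed-lung library and 30.6 in the normal-lung library, 1.15-fold higher (1.10 to 1.19). The hairpins themselves differed far more than the libraries did, with the minor strand of miR-145 a sizeable part of its reads and that of miR-143 a trace.

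**Figure D3:**
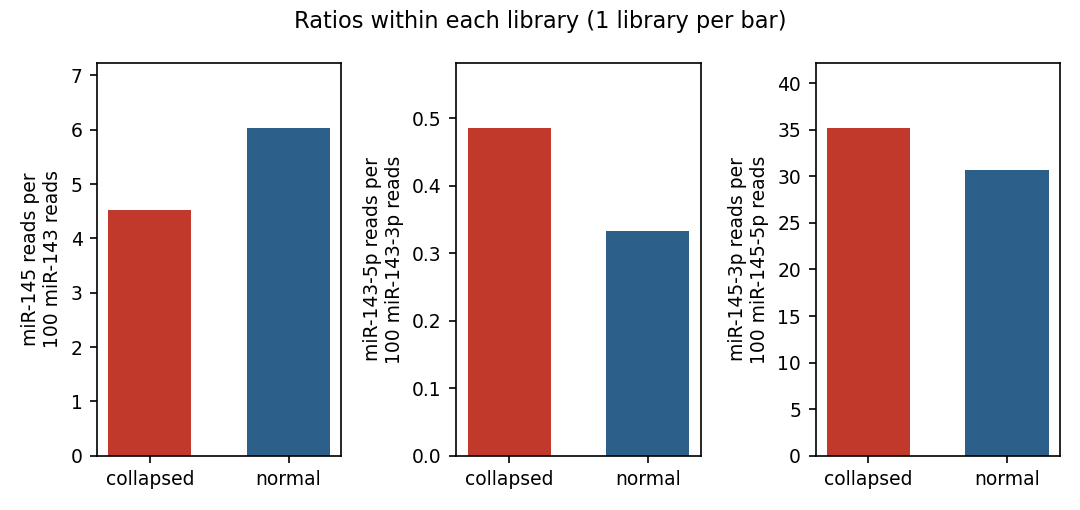
Reads of miR-145 per 100 reads of miR-143 (left), of miR-143-5p per 100 of miR-143-3p (middle) and of miR-145-3p per 100 of miR-145-5p (right) in the collapsed-lung library (red) and the normal-lung library (blue), with 1 library per bar and axes from 0. The left bar is lower in collapsed lungs, 4.52 against 6.02, while the minor strands are higher there, 0.485 against 0.332 and 35.1 against 30.6.

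Both strands were measured for 107 miRNAs of the table, counting names of any species, and over these the median absolute difference between the log2 ratios of the strands was 0.24. The difference was 0.55 for miR-143, and 12 of the 107 had a larger one. It was 0.20 for miR-145, and 59 had a larger one. These differences carry no sign. The minor strand took a larger part in collapsed lungs in many of the 107 and a smaller part in many others. The direction shared by miR-143 and miR-145 is therefore not particular to them. The minor strand was scarcer relative to the major one than in miR-143 in 13 of the 107 in the normal-lung library, whereas it was scarcer than in miR-145 in 83, with a median of 6.61 reads per 100 of the major strand. These counts describe the table and were made after the members' values had been seen.

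The pair was set beside other miRNA genes that neighbour each other in the bovine genome. In the same RefSeq gene table, 58 pairs of consecutive miRNA genes with at most 10000 bases between them had a single gene per name and were measured under bovine names. For miR-143 and miR-145, each by its bovine row, the log2 ratios of collapsed over normal lungs lay 0.46 apart. The median gap of the 58 pairs, miR-143 and miR-145 included, was 0.21, and 10 pairs had a wider gap. Their levels lay 24.9-fold apart on the mean over both libraries, against a median of 4.05-fold, and 8 pairs lay further apart. A gene can belong to 2 pairs, and neighbouring genes need not share a transcript, so the pairs are a description and not a test.

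**Figure D4:**
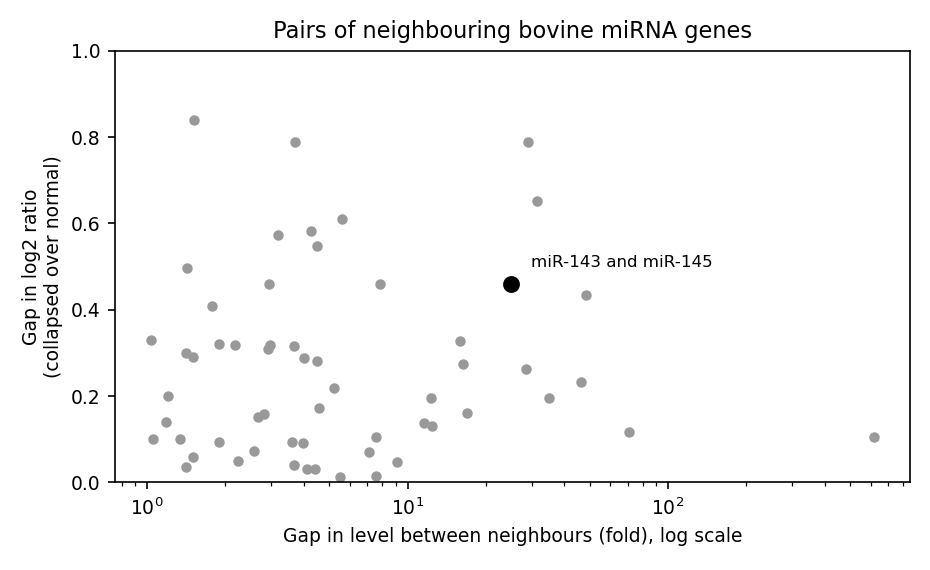
Gap between the log2 ratios (collapsed over normal lungs) of neighbouring bovine miRNA genes against the gap between their levels in fold, for 58 pairs. The gap in level is on a log scale. The black point is miR-143 and miR-145, 0.46 apart in log2 ratio and 24.9-fold apart in level, and the remaining pairs are grey.

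In 2 lists of other miRNAs known in smooth muscle, 2 of 29 measured rows were called, or 6.90%, beside 6.37% of all measured rows. The list of miRNAs of the contractile state, which promote or accompany differentiated muscle, had 13 measured rows of 7 names and 0 calls, with a median log2 ratio of 0.09, the same to that precision as over all measured rows. The sign of that median depends on the scaling, since it is smaller than the shift of -0.16. The count of 0 depends on it too, as bta-miR-23b-5p_R-1, at -0.87 with library totals, was called lower with median-of-ratios factors, at -1.03, and with the authors' normalized values. In this list miR-10a stood at 17259 RPM in collapsed and 13670 RPM in normal lungs, a log2 ratio of 0.34. miR-100 was at -0.29, miR-23b-3p at 0.16 and miR-424-5p at 0.90. miR-133a, which represses serum response factor in mouse muscle, was scarce, with 22.8 RPM on each of 2 rows in collapsed and 28.2 RPM in normal lungs, and miR-1, miR-133b and miR-206 were below the 10 RPM minimum or had no row.

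The list of miRNAs linked to the proliferative state of smooth muscle had 16 measured rows of 8 names, with 1 called higher and 1 called lower and a median log2 ratio of -0.01. Over all measured rows 3.49% were called higher and 2.87% lower. miR-21-3p was called higher, at 120 RPM in collapsed and 56.9 RPM in normal lungs, a log2 ratio of 1.08. This call was lost with median-of-ratios factors (0.93), the trimmed mean (0.97) and the authors' normalized values (0.95), and its mean level was below a minimum of 100 RPM. miR-146a was called lower, at 1192 RPM in collapsed and 2456 RPM in normal lungs, a log2 ratio of -1.04. The guide strand miR-21-5p, known in human and rodents to promote smooth muscle and fibroblast growth, was at 0.92 and not called, while miR-26a was at -0.06 and miR-24-3p at -0.06. A list of other mesenchymal miRNAs had 13 measured rows of 6 names and 0 calls, with a median log2 ratio of 0.36. With library totals 1 of its measured rows lay below 0, and 3 did with median-of-ratios factors, the trimmed mean or the authors' normalized values. Of this list, miR-199b was at 0.33, miR-199a-5p at 0.26, miR-199a-3p at 0.42 and miR-22-3p at 0.50. miR-145 and the guide strand of miR-143 had the opposite sign to these abundant miRNAs, while miR-143-5p, at 0.43, had the same sign. miR-10b of the list was at 0.02, less than the shifts of the other scalings.

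**Figure D5:**
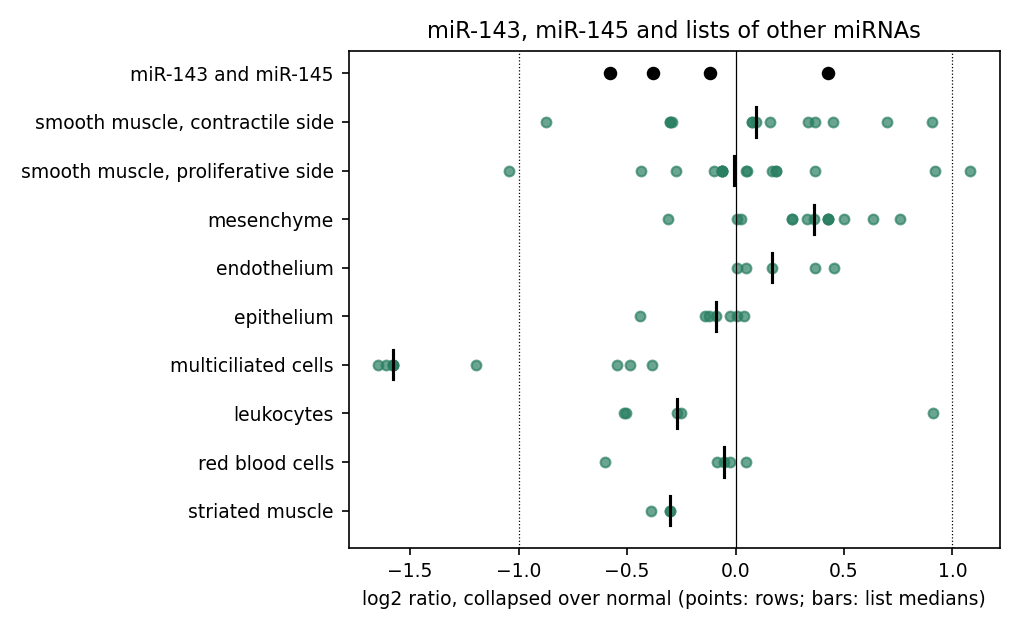
Log2 ratios of collapsed over normal lungs for the measured rows of miR-143 and miR-145 (black, top) and of 9 lists of other miRNAs (green), with black bars at list medians and dotted lines at a 2-fold difference. The 13 mesenchyme rows centre on 0.36, while the rows of miR-143 and miR-145 run from -0.58 to 0.43. Some rows of the endothelium and striated muscle lists are also drawn in a smooth muscle list.

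In RNA of whole lung, fewer cells of a type and less of a miRNA per cell cannot be told apart. Marker miRNAs of other cell types are therefore given beside these results, as levels summed over all rows of each list. Some of them also stand in the smooth muscle lists above, so that their rows are counted in both places. These are miR-221 and miR-222 of the endothelial list, and miR-1, miR-133a, miR-133b, miR-206 and miR-208b of the striated muscle list. The 5 markers of multiciliated airway cells summed to 2755 RPM in collapsed and 7969 RPM in normal lungs, with 6 of their 9 measured rows called lower and 0 higher. Over all measured rows 2.87% were called lower and 3.49% higher. The 6 calls were all of miR-34b or miR-34c, with mdo-miR-34b-5p repeated. The row bta-miR-34c_R+1 alone had 2105 RPM in collapsed and 6596 RPM in normal lungs. The bovine rows of miR-449a, miR-449b and miR-449c, at log2 ratios of -0.55, -0.39 and -0.49, were not called. The 5 epithelial markers summed to 7513 RPM in collapsed and 8109 RPM in normal lungs, with 0 of 7 measured rows called. The 3 endothelial markers summed to 49867 RPM in collapsed and 47324 RPM in normal lungs, with 0 of 5 called. The 4 leukocyte markers summed to 2636 RPM in collapsed and 3133 RPM in normal lungs, with 0 of 5 called. They did not move together, as miR-155 was at a log2 ratio of 0.91. The measured rows of miR-142, miR-150 and miR-223 lay from -0.51 to -0.25. The red blood cell markers, 3 in number, summed to 3015 RPM in collapsed and 3149 RPM in normal lungs, with 0 of 5 called. Striated muscle markers summed to only 88.6 RPM in collapsed and 112 RPM in normal lungs, and 1 of the 6, miR-206, had no row. The part of these differences in the values of miR-143 and miR-145 was not tested.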

How the data were processed

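Small RNA was sequenced from 1 pooled library per group. The labels' protocols name Trizol for extraction and a TruSeq kit for the small RNA libraries. The submitters' processing notes name the build bosTau8. Neither the aligner nor the trimming, nor how end variants were treated, was given in the sources used here. The authors deposited raw reads per row, used here as estimated counts because some values held fractions. Whole values made up 84.3% of rows in the collapsed-lung and 84.5% in the normal-lung library. All 10 values of the miR-143 and miR-145 rows were whole, and their sequences stood on no other row. The authors' normalized values, a signal per the file headers, equalled raw reads divided by 0.823 in the collapsed-lung and 1.21 in the normal-lung library for these rows. The deposited table also holds the authors' fold change of these values, its log2 and p-values from tests on the reads of the 2 libraries, which are not used as evidence here. Emptied lines, 2 in number, were not analysed here.

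Reads were scaled to table totals (RPM). Where a library had 0 reads, 0.5 was added to both. Reads were rounded for intervals. Rows repeated under a name counted as separate rows in lists and calls. A row with no strand in its name went to the strand whose named row was nearer in edits (the shorter sequence at its best place in the longer) or, with 1 strand named, to that strand at up to 4 edits and otherwise to the other. The named miRNAs were all member rows, the 3 bovine names nearest to each major row, rows sharing a seed, and in each smooth muscle or mesenchyme list those called and up to 4 of the most abundant. miR-133a, miR-1, miR-133b, miR-206, bta-miR-23b-5p_R-1, miR-10b and the miRNAs named from the marker lists were added after their values were seen. The members and lists were chosen with earlier results of these data known. Python 3.11.15, numpy 2.4.6, scipy 1.17.1, edlib 1.3.9.post1 and matplotlib 3.10.9 were used. The intervals and calls were tested on simulated reads with counting error alone, planted changes and a known scaling. Such reads cannot speak to PCR copies, the choice of scaling or the spread between animals.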

Additional observations from a re-analysis of the deposited data

How the results depend on the processing

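No paired analysis was possible because each group is a single pooled library. The log2 ratio of miR-143, -0.12 over its rows, was -0.27 with median-of-ratios factors, -0.23 with the trimmed mean, -0.24 with the authors' normalized values and -0.14 with totals that leave out the 5 rows themselves. That of miR-145, -0.53 over its rows, was -0.68, -0.64 and -0.66 with the first 3 of these and -0.58 with the bovine row alone. The log2 change of the miR-145 to miR-143 ratio was -0.41, and -0.46 with bovine names only or with the most abundant row of each. Strand ratios had no value with bovine names only, since each hairpin has 1 bovine row. Adding 5 reads changed the sign of 0 of the 5 rows. The table's 17 higher and 14 lower calls became 49 and 31 with no minimum and 0 and 6 with a minimum of 100 RPM. With a ratio of 1.5 they became 62 and 35. Whether the counts rose or fell was fixed by each setting, but by how much was not. The 17 rows called higher all had a mean below 100 RPM. Of the 5 rows 0 were called under these 3 settings or under the other scalings, and 1, bta-miR-145, at 1.5-fold with median-of-ratios factors, 1 with the trimmed mean and, from the authors' normalized values, 1, a combination added after the data were seen. Of 18 counts of calls in the lists, 2 changed with median-of-ratios factors, where contractile rows called lower became 1 and proliferative rows called higher 0. The authors' normalized values gave the same 1 and 0, and the trimmed mean gave the 0 alone, both added after the data were seen. With a minimum of 100 RPM 2 changed, proliferative rows called higher to 0 and multiciliated rows called lower to 3. The calls concerned are of miR-23b-5p and miR-21-3p, and of 3 rows of miR-34b and miR-34c. Depth resolves a difference of a few percent for miR-143-3p but none for the platypus-named row, and the spread between animals is unknown.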
